A study of Mus musculus with 12 samples.

Results

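This report describes 10 genes for transcription factors, and for inhibitors of transcription factors, that are known from effector and exhausted CD8+ T cells: *Tbx21*, *Eomes*, *Tox*, *Tox2*, *Zeb2*, *Prdm1*, *Id2*, *Id3*, *Batf* and *Runx3*. They were chosen by name from 18992 genes listed in at least 1 of the 3 deposited expression tables. The rule used no measured value, but earlier results of these data were known when the genes were chosen. Each gene was listed in all 3 tables and passed the filter on low values.

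The cells were PD-1+CD44+CD8+ T cells sorted from NZB/W F1 mice, a hybrid strain that develops lupus nephritis with age, and they were sequenced as single cells from the 5′ end. Spleen cells came from mice of 12 weeks (12W spleen) and 28 weeks (28W spleen), and kidney cells from mice of 28 weeks (28W kidney). All cells therefore shared the strain and the sort, no group was treated, and PD-1-negative cells are not analysed here. The kidney was digested with collagenase before sorting, so organ and digestion cannot be told apart. For the older spleen samples the titles say 28W while the field for age says 12 weeks, and the titles were followed. Each group had 4 labelled samples, whose titles differed only in a final number. Whether these were mice, or sequencing lanes of the same library, was not stated. The deposited table of a group gave 1 mean per cluster over all of its cells. Every group was therefore 1 library without replicates, and no test between groups was possible.

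T-bet, encoded by *Tbx21*, and its relative Eomes are T-box factors that drive the cytotoxic programme of CD8+ T cells. Blimp-1, encoded by *Prdm1*, and Zeb2 act with T-bet in terminal effector cells, and Tox is needed for T cells to persist under chronic antigen. Id2 and Id3 bind no DNA themselves but hold E proteins off their sites, called E-boxes, with Id2 favouring effector and Id3 memory cells, while Batf and Runx3 act early and broadly in activated CD8+ T cells.

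There were 6894 cells (10 clusters) at 12W and 6481 cells (11 clusters) at 28W from spleen, and 7135 cells (12 clusters) from kidney. Where 3 library values follow each other without a name, their order is 12W spleen, 28W spleen, kidney. Unique molecular identifiers (UMIs, 1 per captured transcript) totalled 29937384 to 34742303 per library, with medians of 3501 to 4128 per cell, and 52 to 66 cell barcodes were shared between any 2 libraries. Levels are UMIs per 1000000 UMIs of the library or cluster (CPM), with exact 95% Poisson intervals that cover counting error only. Of the 33 clusters, 11 were set apart: 9 had raised markers of another cell type (B, plasma, myeloid, erythroid or kidney tubule cells), 2 had raised proliferation markers and 4 were shallow, with some in more than 1 class. The 22 retained clusters held 77.1% of 12W spleen, 87.1% of 28W spleen and 65.4% of 28W kidney cells. *Cd8a*, which encodes a chain of the CD8 coreceptor, stood at 591, 488 and 738 CPM, while *Cd4* stood at 0.345, 0.593 and 3.94 CPM. *Cd4* was thus low in every library but 6.64-fold higher in kidney than in 28W spleen (4.07 to 11.4). Not all markers went with the sort label. *Foxp3* of regulatory T cells was among the leading genes of cluster 6 of 12W spleen. *Ncr1* of natural killer (NK) cells was among those of cluster 9 of 28W spleen. Cluster 4 of the kidney was led by *Tcrg-V6* and *Il17a*, genes of gamma delta T cells, and was retained. Its 4 gamma delta markers summed to 115.8 CPM, against 8.3 to 32.3 CPM in the other retained kidney clusters. The T cell markers summed to 5365.7 CPM in cluster 4, and its share of gamma delta cells was not tested. Markers of gamma delta, CD4 and NK cells were not used to set clusters apart. The 4 NK and innate lymphoid markers summed to 150.7 CPM in cluster 2 of 12W spleen. The other retained clusters there had 2.3 to 42.7 CPM. In 28W spleen they summed to 107.3 and 123.6 CPM in clusters 2 and 9, against 0.7 to 16.2 CPM in the other retained clusters. The part of NK cells in these clusters was not tested. The 7 genes known to respond to tissue dissociation summed to between 306.2 and 640.7 CPM in the retained clusters of 12W spleen, 617.0 and 1702.7 CPM in those of 28W spleen, and 1224.5 and 2916.3 CPM in those of the kidney. Of the markers that passed the filter on low values, all 5 of kidney tubule, all 4 of plasma and all 6 of myeloid cells and 5 of 7 of B cells were higher in kidney by the fold used below, and all 5 erythroid markers were lower by age. Of the 4 NK and innate lymphoid markers, 3 were higher in kidney by the same fold. The part of these genes in the ratios below was not tested.

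Between 12W and 28W spleen, *Tbx21*, *Tox2* and *Zeb2* were higher by at least 1.5-fold and *Id3* was lower. Between 28W spleen and 28W kidney, these 4 genes differed again in the same direction, and *Prdm1* and *Id2* were higher in kidney as well. A ratio was called when it passed 1.5-fold on the log2(CPM + 1) scale, which understates ratios of low genes. By age 3 of the 10 genes were called higher against a background of 5.28% of 11298 genes, and 1 was called lower against 3.85%. By organ 5 of the 10 were called higher against a background of 13.9%, and 1 was called lower against 4.7%. The median log2 ratio of the 10 genes was 0.36 by age, where that of all genes was -0.08, and 0.66 by organ, where that of all genes was 0.08. At 2-fold the counts were 1 higher (background 1.96%) and 0 lower (0.956%) by age, and 3 higher (7.32%) and 1 lower (1.4%) by organ. Both comparisons share the 28W spleen library, so their ratios are not independent of each other. In sums over a library, fewer cells with a transcript and less transcript per cell cannot be told apart.

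**Figure D1:**
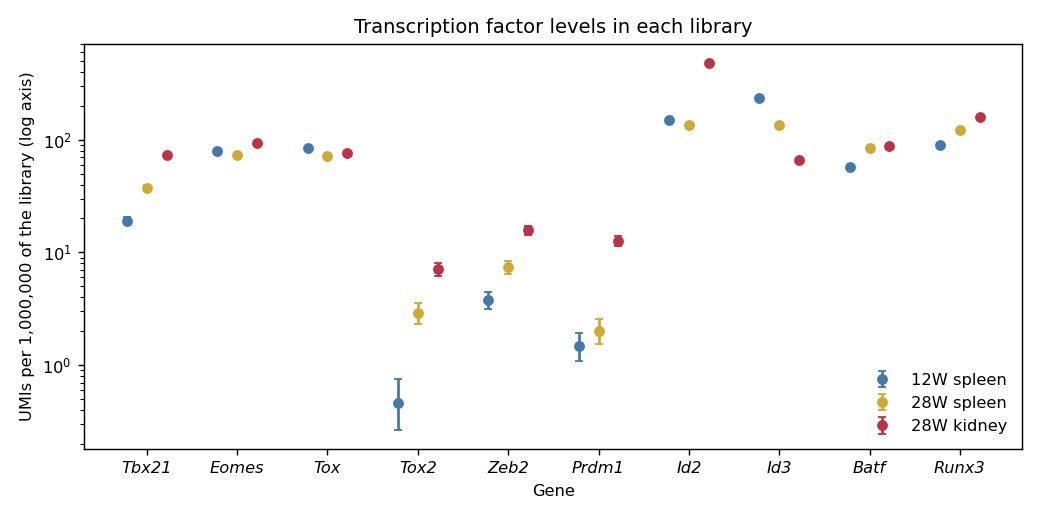
Level of each of the 10 genes in the 3 libraries, in UMIs per 1000000 on a log axis, with exact 95% Poisson intervals. *Tbx21*, *Tox2*, *Zeb2* and *Runx3* stand in the order 12W spleen, 28W spleen, 28W kidney, *Id3* stands in the reverse order, and *Tox* differs little between the libraries. Levels are to be compared within a gene only.

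**Figure D2:**
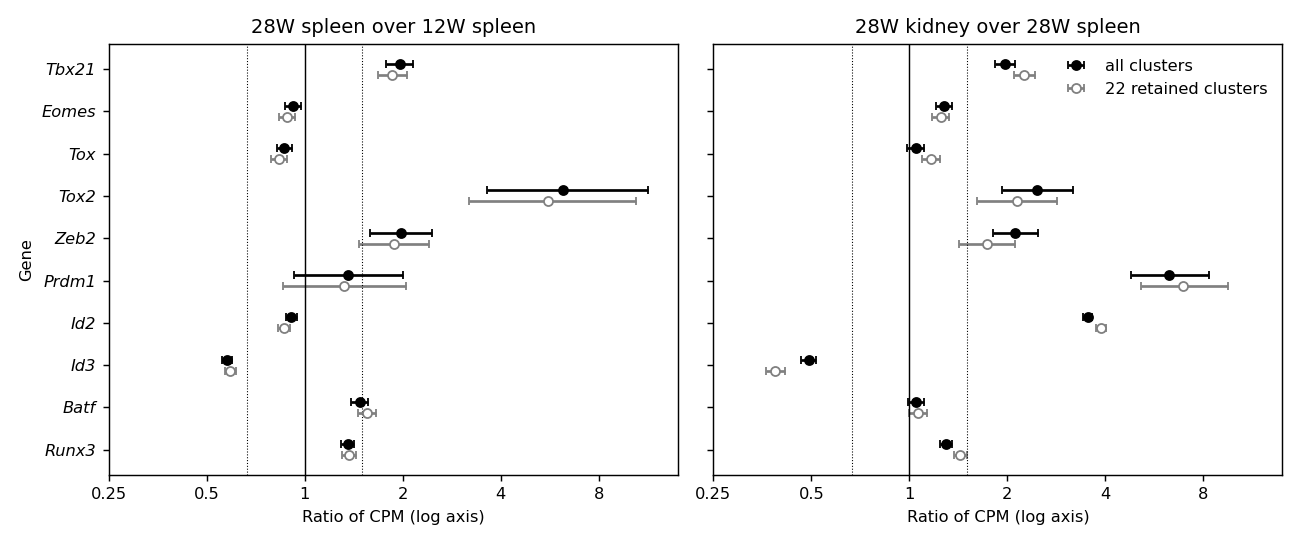
Ratio of CPM for each gene by age on the left and by organ on the right, on log axes, from all clusters (filled) and from the 22 retained clusters (open), with exact 95% counting intervals. Dotted lines mark 1.5-fold in either direction. The *Id3* points lie left of the line in both panels, and the *Prdm1* and *Id2* points pass the line on the right by organ only.

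*Tbx21*, which encodes T-bet, rose in level from library to library. It stood at 19.2 CPM in 12W spleen, 37.5 CPM in 28W spleen and 73.6 CPM in 28W kidney, from 666, 1202 and 2202 UMIs. The intervals of the 3 libraries did not overlap. The ratio was 1.96 by age (95% interval 1.78 to 2.16) and 1.96 by organ (1.83 to 2.10). In the retained clusters alone it was 1.86 by age and 2.25 by organ.

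In 12W spleen the gene was concentrated in 1 cluster. Cluster 2, led by *Ccl5*, *S100a6* and *Gzmk*, held *Tbx21* at 77.1 CPM (68.6 to 86.4), while the 9 other clusters lay between 4.62 and 17.7 CPM. This cluster gave 44.9% of the *Tbx21* UMIs of the library from 11.2% of all its UMIs. Without it, and with 28W spleen left whole, the log2 ratio by age was 1.58 where it was 0.93 with it. In 28W spleen the level of cluster 2, led by *Ccl4*, *Ccl5* and *Gzmb*, was 76.3 CPM, and clusters 5, 4 and 1 followed at 50.6, 47.5 and 42.1 CPM. The highest clusters of the spleen libraries thus had overlapping intervals, while the median retained cluster stood at 14.2 CPM at 12W and 40.5 CPM at 28W. In the kidney the retained clusters stood within 1.92-fold of each other, from 53.7 CPM in cluster 5 to 103 CPM in cluster 3, and all 7 were above 7 of the 8 retained clusters of 28W spleen. The lowest kidney level, 15.4 CPM, was in cluster 12, where markers of myeloid cells were raised.

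*Eomes*, the other T-box gene, differed little between libraries. It stood at 79.2 CPM in 12W spleen, 72.9 CPM in 28W spleen and 93.3 CPM in 28W kidney. The spleen intervals lay close together (76.3 to 82.2 and 70.0 to 75.9 CPM), and the ratio by organ was 1.28 (1.21 to 1.35), under the 1.5-fold threshold. Among clusters the gene varied widely, and some of its higher levels were in clusters without high *Tbx21*. At 12W its highest level, 177 CPM, was in cluster 7, led by *Xcl1*, *Ccl4* and *Tnfrsf9*. *Tbx21* stood there at 14.2 CPM, the median of the retained clusters of that library. Clusters 1 of 12W spleen and 3 of 28W spleen, both led by *Sox4* and *Myb*, held *Eomes* at 108 and 132 CPM and *Tbx21* at 13.0 and 12.5 CPM. In the retained kidney clusters *Eomes* lay between 49.1 CPM in cluster 5 and 129.7 CPM in cluster 3, the clusters that were also lowest and highest for *Tbx21*.

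The log2 ratio of *Tbx21* over *Eomes* expresses this shift within each library, where its change across libraries is of interest and not its sign. It was -2.05 and -0.96 in 12W and 28W spleen, against -0.34 in the kidney. Over the retained clusters it spanned -3.74 to 0.89 at 12W and -3.41 to 0.83 at 28W in spleen, and -0.36 to 0.18 in the kidney, where the range was narrowest.

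The promoters of *Tbx21* and *Prdm1*, both called higher in kidney, are shown beside that of *Eomes*, which was not called, because Id proteins act through E-boxes and both *Id* genes were called by organ. The E-box searched was CANNTG, which covers both strands because its reverse complement has the same form. In the 250 bases before the RefSeq start (GRCm38.p6) *Tbx21* had 1 E-box, *Prdm1* had 2 and *Eomes* had none. The motif did not go with the calls over all members: *Zeb2*, called higher in kidney, had none in any of its 4 windows, while *Batf*, not called, had 3 and 1 of the 2 windows of *Runx3*, not called, had 1. Of 32851 promoter windows of this length, 66.2% held the motif, so a match is common and describes only the letters of the window. RefSeq promoters were matched for 9 of the 10 genes, all but *Tox*. The windows read 5′ to 3′ on the strand of the gene, with E-boxes in capitals: *Tbx21* is chr11:97115332-97115581 on the minus strand, *Eomes* chr9:118477939-118478188 on the plus strand, and *Prdm1* chr10:44458749-44458998 on the minus strand, at a start inside the span that GENCODE gives the gene. None of the 3 windows overlapped a GENCODE exon.
Tbx21: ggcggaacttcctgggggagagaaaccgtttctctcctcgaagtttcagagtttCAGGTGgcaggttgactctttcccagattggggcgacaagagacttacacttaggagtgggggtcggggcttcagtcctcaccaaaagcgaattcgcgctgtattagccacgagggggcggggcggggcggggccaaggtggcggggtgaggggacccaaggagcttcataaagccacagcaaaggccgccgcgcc
Eomes: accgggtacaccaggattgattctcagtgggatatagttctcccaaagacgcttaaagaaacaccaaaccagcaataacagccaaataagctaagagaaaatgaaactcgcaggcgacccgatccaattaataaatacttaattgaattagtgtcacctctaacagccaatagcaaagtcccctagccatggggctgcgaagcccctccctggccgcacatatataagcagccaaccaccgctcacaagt
Prdm1: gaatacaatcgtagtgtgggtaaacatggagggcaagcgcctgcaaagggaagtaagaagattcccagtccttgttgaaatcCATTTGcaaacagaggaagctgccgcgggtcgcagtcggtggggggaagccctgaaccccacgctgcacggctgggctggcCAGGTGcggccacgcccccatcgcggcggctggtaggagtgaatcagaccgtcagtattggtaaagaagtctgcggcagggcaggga

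*Tox*, a factor required for exhausted T cells to form, was not called in either comparison. It stood at 83.5 CPM in 12W spleen, 72.4 CPM in 28W spleen and 75.7 CPM in 28W kidney. The ratio was 0.866 by age (0.820 to 0.915) and 1.05 by organ (0.986 to 1.11), and the interval by organ included 1. In the kidney *Pdcd1*, which encodes PD-1 and was used for the sort, stood at 115 CPM against 34.7 CPM in 28W spleen, so it was 3.32-fold higher (3.10 to 3.55) where *Tox* was not called.

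In both spleen libraries the retained cluster with most *Tox* was the one led by *Sox4* and *Myb*. Cluster 1 of 12W spleen had 169 CPM and cluster 3 of 28W spleen 133 CPM, in each case above the next retained cluster at 109 and 92.7 CPM without overlap of the intervals. No kidney cluster was led by these genes, and the highest retained level there was 115 CPM in cluster 3, whose interval overlapped that of cluster 10 at 105 CPM. Higher *Tox* levels occurred in 2 shallow clusters with much mitochondrial RNA, namely 305 CPM in cluster 8 of 12W spleen (87 UMIs) and 228 CPM in cluster 11 of 28W spleen (63 UMIs). The mitochondrial share there was 8.98% and 6.64%, and its part in the *Tox* level was not tested.

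*Tox2*, a relative of *Tox* with overlapping roles, was low throughout and rose by age. It stood at 0.461 CPM in 12W spleen, 2.87 CPM in 28W spleen and 7.08 CPM in 28W kidney, from 16, 92 and 212 UMIs. The ratio was 6.24 by age (3.64 to 11.4) and 2.46 by organ (1.92 to 3.18). With a pseudocount of 10 CPM, above these levels, neither was called (log2 0.30 by age and 0.41 by organ). No *Tox2* UMI was found in 5 of the 10 clusters of 12W spleen, and cluster 2 held 9 of the 16. In 28W spleen the most were in cluster 6, led by *Pclaf* and *Birc5* of the cell cycle, at 5.90 CPM (4.17 to 8.09). In the kidney the proliferating cluster 11 stood highest at 13.2 CPM (9.91 to 17.2), followed by cluster 3 at 10.7 CPM (7.67 to 14.6). The intervals of all neighbouring clusters overlapped in each library, so the order of single clusters was not resolved at this depth.

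*Zeb2*, a repressor that promotes terminal effector cells, was called higher in both comparisons. It stood at 3.74 CPM in 12W spleen, 7.40 CPM in 28W spleen and 15.7 CPM in 28W kidney. The ratio was 1.98 by age (1.59 to 2.47) and 2.12 by organ (1.81 to 2.49). Its top retained clusters reached 7.22 CPM in cluster 2 of 12W spleen, 18.3 CPM in cluster 2 of 28W spleen and 18.8 CPM in cluster 3 of the kidney. The call by age rested on cluster 2 of 28W spleen: without it the log2 ratio was 0.45, under the threshold, where it was 0.83 with it. With a pseudocount of 10 CPM *Zeb2* was called in neither comparison (log2 0.34 by age and 0.56 by organ).

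*Zeb2* is also strongly expressed by myeloid cells, and part of its kidney level came from a cluster with raised markers of these cells. Cluster 12 of the kidney stood at 105 CPM (86.2 to 127), while the 11 other kidney clusters lay between 6.02 and 21.7 CPM. The 7 myeloid markers summed to 23302.9 CPM in that cluster and to between 194.0 and 230.6 CPM in the 7 retained kidney clusters. In the retained clusters of 12W spleen this sum ranged from 107.7 to 223.2 CPM, and in those of 28W spleen from 134.7 to 217.9 CPM. Of the 7 markers 6 passed the filter and all 6 were higher in kidney, while none was at 0 in any library. Clusters with raised markers of any other cell type gave 52.7% of the kidney *Zeb2* UMIs and 34.7% of all kidney UMIs. Among these only cluster 12 had raised myeloid markers, and it gave 109 of the 469 kidney *Zeb2* UMIs. In the retained clusters alone the ratio by organ was 1.73 (1.43 to 2.11).

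*Zeb1*, the relative that acts in memory cells, stood at 26.9, 27.1 and 23.2 CPM and was not called. The log2 ratio of *Zeb2* over *Zeb1* was -2.85, -1.87 and -0.57 in these libraries, where again the change and not the sign is of interest.

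*Prdm1*, which encodes the repressor Blimp-1, was called higher in kidney. It stood at 1.47 CPM in 12W spleen, 1.999 CPM in 28W spleen and 12.5 CPM in 28W kidney, from 51, 64 and 375 UMIs. The ratio by age was 1.36 and its interval included 1 (0.928 to 2.01), whereas the ratio by organ was 6.27 (4.80 to 8.30). In the retained clusters alone the ratio by organ was 6.94 (5.15 to 9.51). The size of the difference depended on the scale: the log2 ratio by organ of 2.17 was 1.47 with clusters weighted equally and 0.91 with a pseudocount of 10 CPM, still past the threshold. In 12W spleen cluster 2 had 31 of the 51 UMIs, at 7.998 CPM (5.43 to 11.4), and no other retained cluster exceeded 0.975 CPM. Without that cluster the log2 ratio by age was 0.86, past the threshold, where it was 0.28 with it.

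Every kidney cluster contained *Prdm1* transcripts. The retained clusters ranged from 3.24 CPM in cluster 5, led by *Il7r* and *Klf2* of memory cells, to 24.7 CPM in cluster 3, led by *Crot*, *Klrc1* and *Cxcr6*. Cluster 3 was followed by cluster 10 at 21.95 CPM and cluster 6 at 17.1 CPM, with overlapping intervals. *Prdm1* is also a gene of plasma cells, whose 4 markers were all higher in kidney and summed to between 41.7 and 68.9 CPM in the retained kidney clusters against 15259.0 CPM in cluster 2. Clusters with raised markers of another cell type gave 36.3% of the kidney *Prdm1* UMIs, close to their 34.7% of all UMIs. *Bcl6*, which opposes Blimp-1, stood at 10.2, 6.25 and 5.48 CPM and was called lower by age. The log2 ratio of *Prdm1* over *Bcl6* was -2.79, -1.64 and 1.19 in the same order.

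*Id2* and *Id3* moved in opposite directions in the kidney. *Id2* stood at 149 CPM in 12W spleen, 135 CPM in 28W spleen and 477 CPM in 28W kidney. *Id3* stood at 234 CPM in 12W spleen, 135 CPM in 28W spleen and 66.1 CPM in 28W kidney. The ratio of *Id2* was 0.911 by age (0.875 to 0.949) and 3.53 by organ (3.41 to 3.65), and *Id3* was 1.73-fold lower by age (1.67 to 1.80) and 2.04-fold lower by organ (1.93 to 2.15). *Id3* was thus called lower in both comparisons, and *Id2* was called by organ only.

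*Id2* varied 3.45-fold over the retained kidney clusters. The highest retained clusters were 3 at 728 CPM, 6 at 690.3 CPM, 1 at 626 CPM and 10 at 625 CPM, where cluster 6 was led by interferon-stimulated genes and cluster 1 by *Gzmb*. The lowest were clusters 5 and 9, both led by *Il7r*, at 211 and 329 CPM. Of the 7 retained kidney clusters, 6 were above all 8 retained clusters of 28W spleen, whose highest level was 254 CPM in cluster 2. *Id3* was lowest in kidney clusters 6, 1 and 3, at 18.1, 22.7 and 33.8 CPM, which were the 3 highest retained clusters for *Id2*. It stood at 65.9 CPM in cluster 10, 81.9 CPM in cluster 5, 83.9 CPM in cluster 4 and 101 CPM in cluster 9. In the spleen *Id3* was high in the clusters led by *Sox4* and *Myb*, at 355 CPM in cluster 1 of 12W spleen and 255 CPM in cluster 3 of 28W spleen, and cluster 9 of 12W spleen, led by *Nrgn*, reached 359.9 CPM. Kidney clusters with raised markers of another cell type held 47.7% of the kidney *Id3* UMIs, and their highest level was 159.9 CPM in cluster 8, which had raised B cell markers. In the retained clusters alone *Id3* was 2.58-fold lower by organ (2.41 to 2.76) and *Id2* was 3.88-fold higher (3.74 to 4.03).

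The log2 ratio of *Id2* over *Id3* was -0.65 and 0.01 in 12W and 28W spleen, against 2.85 in the kidney. It was above 0 in 2 of the 10 clusters of 12W spleen, in 6 of the 11 of 28W spleen and in all 12 of the kidney. Here 0 serves only as a fixed mark for comparing libraries, not as a point of equal levels. Its range over retained clusters was -2.35 to 0.59 at 12W and -1.43 to 1.35 at 28W in spleen, and 1.36 to 5.25 in the kidney. The lowest retained kidney cluster, cluster 5 at 1.36 (1.11 to 1.62), and the highest retained spleen cluster, cluster 2 of 28W spleen at 1.35 (1.19 to 1.503), had overlapping intervals. Either gene taken alone overlapped between the organs: no member had every retained kidney cluster above, or every one below, all retained clusters of 28W spleen, a pattern seen upwards in 1.04% and downwards in 0.345% of the 11298 genes. By age too no member separated the retained clusters in this way, where 0.142% of all genes did so upwards and 0.0531% downwards.

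**Figure D3:**
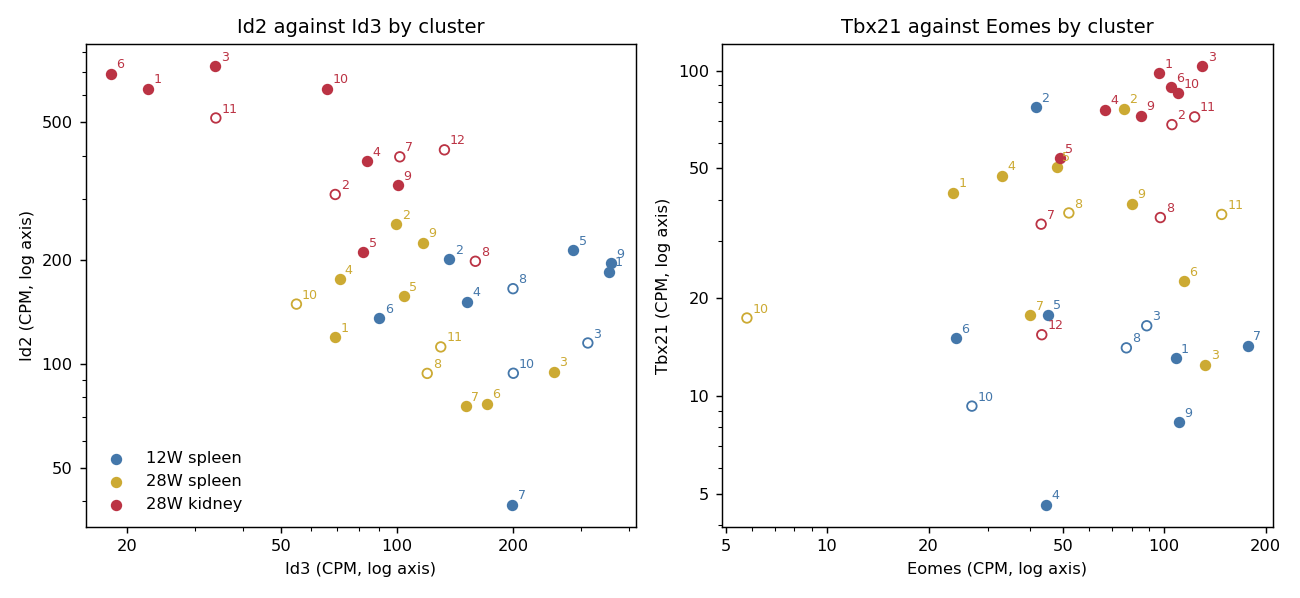
Level of *Id2* against *Id3* on the left and *Tbx21* against *Eomes* on the right in each cluster, in CPM on log axes, with clusters numbered as deposited. Filled points are the 22 retained clusters and open points the 11 set apart. Kidney clusters 6, 1 and 3 lie at the upper left of the *Id2* and *Id3* panel, and the retained kidney clusters other than cluster 5 lie close together at the upper right of the other panel.

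*Batf*, an AP-1 factor that opens chromatin early in activation, lay just under the threshold by age. It stood at 56.8 CPM in 12W spleen, 83.8 CPM in 28W spleen and 87.7 CPM in 28W kidney. The ratio was 1.48 by age (1.39 to 1.56) and 1.05 by organ (0.991 to 1.10). In the retained clusters the ratio by age was 1.56 and passed the threshold, so the call for *Batf* depended on the clusters kept. Of the 10 genes it had the smallest ratio of highest to lowest retained cluster in each library, with levels from 67.8 to 108 CPM in the retained clusters of 28W spleen and from 75.9 to 114 CPM in those of the kidney. *Batf3*, a relative, was low at 0.461, 1.22 and 3.34 CPM and was called higher in both comparisons, and *Junb*, a partner, stood at 309, 884 and 757 CPM and was called higher by age.

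*Runx3*, which establishes and keeps the CD8 lineage, differed in the same order as *Tbx21* without passing the threshold. It stood at 90.0 CPM in 12W spleen, 122 CPM in 28W spleen and 158 CPM in 28W kidney. The ratio was 1.36 by age (1.29 to 1.42) and 1.29 by organ (1.24 to 1.35). The highest levels were in shallow clusters, 263 CPM in cluster 8 of 12W spleen and 412 CPM in cluster 11 of 28W spleen, and over all clusters *Runx3* had a Pearson correlation of -0.59 with the log2 of UMIs per cell. Among retained clusters it was highest in cluster 2 of 12W spleen at 129 CPM, cluster 9 of 28W spleen at 229 CPM and cluster 10 of the kidney at 248 CPM. In each library this was also the retained cluster with the fewest UMIs per cell, at 3467, 1706 and 1822. The part of this depth in the *Runx3* level was not tested. *Runx2*, a relative of *Runx3*, stood at 8.32, 18.7 and 33.6 CPM, and its ratios of 2.25 by age (1.95 to 2.60) and 1.80 by organ (1.62 to 1.99) were both called.

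Read by cluster, the genes fell into recurring combinations. Cluster 2 of 12W spleen and cluster 2 of 28W spleen were the highest or next highest retained clusters of their libraries for *Tbx21*, *Tox2*, *Zeb2*, *Prdm1*, *Id2*, *Batf* and *Runx3*. For *Tox2*, *Zeb2* and *Batf* the intervals of all neighbouring retained clusters overlapped in both spleen libraries, so that order was not resolved. Cluster 3 of the kidney was the highest retained cluster for *Tbx21*, *Eomes*, *Tox*, *Tox2*, *Zeb2*, *Prdm1* and *Id2*, and *Batf* and *Runx3* stood there at 83.0 and 207 CPM. For each of these 7 genes its interval overlapped that of the next retained cluster, so its place at the top was not resolved. *Gzmb*, the gene of the protease granzyme B, stood at 261 CPM in cluster 3 and at 696 CPM in cluster 1. The *Tbx21* intervals of clusters 3 and 1 overlapped. Clusters led by *Sox4* and *Myb* combined high *Tox*, *Eomes* and *Id3*, and their *Tcf7*, which encodes the memory factor TCF-1, stood at 319 and 321 CPM at 12W and 28W. At 28W their *Tbx21* was 12.5 CPM, where the median retained cluster stood at 40.5 CPM. At 12W it lay close to the median retained cluster of 14.2 CPM and above the lowest of 4.62 CPM. The kidney clusters led by *Il7r*, 5 and 9, had the lowest *Prdm1*, *Zeb2*, *Tox2* and *Id2* levels of the retained kidney clusters except that cluster 4 lay between them for *Prdm1* at 6.95 CPM. For *Prdm1*, *Zeb2* and *Tox2* the intervals of all neighbouring retained kidney clusters overlapped. Cluster 5 was also the lowest retained kidney cluster for *Tbx21*, *Eomes*, *Tox*, *Batf* and *Runx3*, and thus for every factor but *Id3*.

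**Figure D4:**
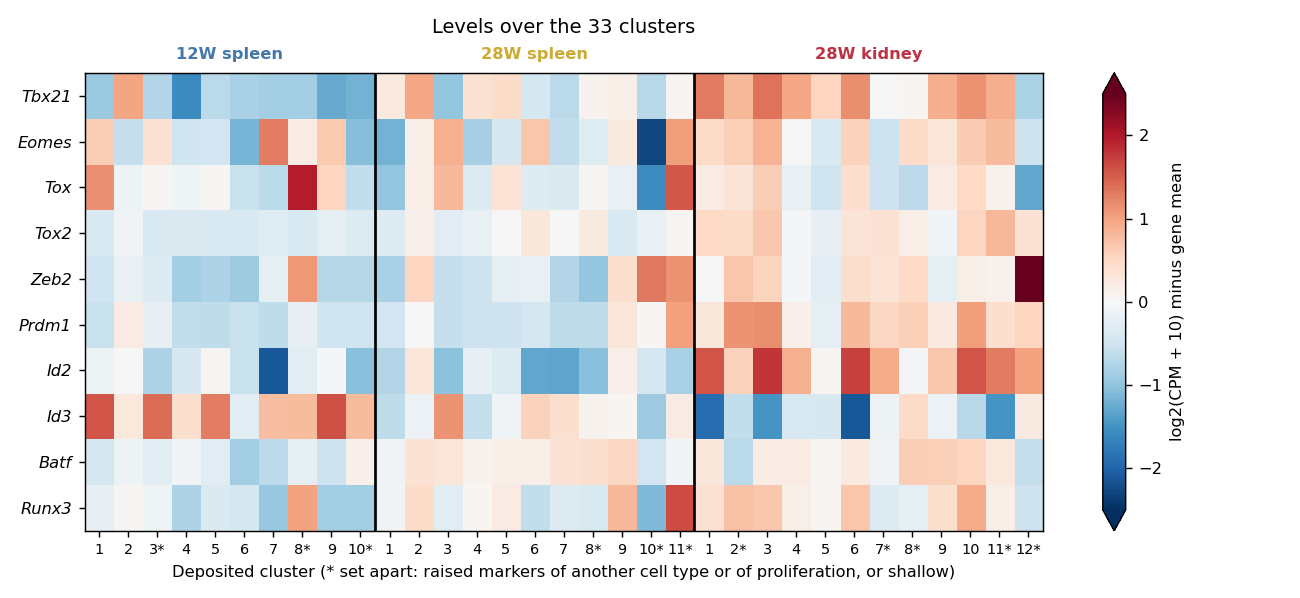
Level of each gene in the 33 clusters, as log2(CPM + 10) minus the mean of that gene over all clusters, with an asterisk on the 11 clusters set apart. Red is above and blue below the gene's own mean. *Id2* is red and *Id3* blue in most kidney clusters, *Tbx21* is red in cluster 2 of both spleen libraries and in most kidney clusters, and *Zeb2* is darkest in kidney cluster 12.

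Correlations across clusters, after the mean of each library was subtracted, describe which genes varied together within libraries. They are given without p-values because clusters share the library, and the deposited clusters were made from the same expression values. *Tox2*, *Zeb2* and *Prdm1* stood at no more than 7.08, 15.7 and 12.5 CPM in any library, so their correlations rest on low counts. The largest of the 45 pairs was *Tox* with *Runx3* (r = 0.77, n = 33 clusters), which was 0.31 over the 22 retained clusters. *Eomes* with *Tox* had r = 0.66 and 0.54 over the same sets. *Prdm1* with *Runx3* had r = 0.62 and 0.77, and *Zeb2* with *Prdm1* had r = 0.59 and 0.76. *Tbx21* went with *Runx3* (0.56 and 0.68) and with *Id2* (0.46 and 0.51) and against *Id3* (-0.52 and -0.50). *Tbx21* with *Eomes* had r = 0.14 and -0.22, values on either side of 0.

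**Figure D5:**
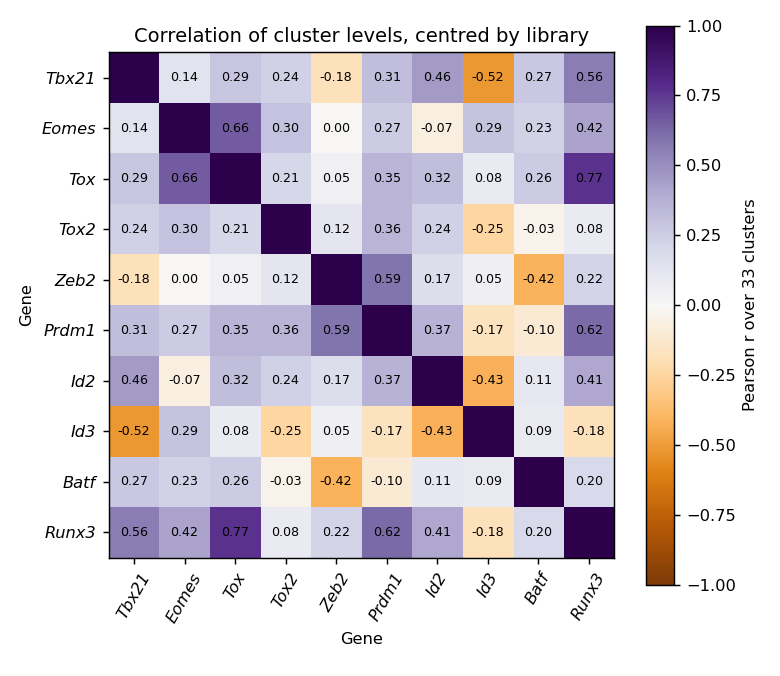
Pearson correlation between each pair of genes over the 33 clusters, from log2(CPM + 10) with the library mean subtracted. The darkest purple field off the diagonal is *Tox* with *Runx3* at 0.77, and the darkest orange field is *Tbx21* with *Id3* at -0.52.

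With effector and receptor genes the pattern differed by factor. *Ifng*, the gene of interferon-γ and a known target of T-bet, had r = 0.75 with *Tbx21* over all clusters and 0.81 over the retained ones. With *Eomes* it had 0.29 and -0.11 and with *Tox* 0.38 and -0.27 over the same sets, so the sign of these changed with the clusters kept. Over the retained clusters *Pdcd1* had r = 0.72 with *Zeb2*, 0.65 with *Eomes*, 0.51 with *Prdm1*, 0.44 with *Tox* and 0.37 with *Tbx21*. Over all clusters these were 0.11, 0.55, 0.29, 0.58 and 0.45, in another order. *Tigit*, an inhibitory receptor gene, had r = 0.89 with *Zeb2* over the retained clusters and 0.29 over all clusters, among which cluster 12 of the kidney had the most *Zeb2* and 37.6 CPM of *Tigit*. *Tox2* had r = 0.67 with *Gzmb* over all clusters and 0.71 over the retained ones.

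The genes most alike to each factor over the 33 clusters were taken from 5245 or 5246 genes with a mean of at least 20 CPM. *Tox2*, *Zeb2* and *Prdm1* did not themselves reach that mean. For *Tbx21* they were *Tpst2* (r = 0.81), *Fasl* (0.79) and *Klrc1* (0.79). For *Eomes* they were *Adora2a*, *Impdh1* and *Sh2d2a*, with r between 0.77 and 0.78. For *Tox* they were *Prkch* (0.92), *Ncor1* (0.91) and *Camk4* (0.91), and for *Runx3* they were *Sorl1* (0.92), *Mbp* (0.92) and *Rassf1* (0.91). *Prdm1* was most like *AU020206* (0.78), *Strn4* and *Hip1* (both 0.76), and *Zeb2* was most like *Ehd4* (0.90), *Cnpy3* (0.88) and *Scamp2* (0.87). The *Zeb2* values fell to 0.70, 0.66 and 0.70 in the retained clusters. *Id2* was most like *Smpd1* (0.78), *Xaf1* (0.76) and *Zyx* (0.74), and *Id3* was most like *Sox4* (0.71), *Klhdc2* (0.70) and *Sdhaf1* (0.70). The lowest likeness was that of *Tox2*, whose next genes after *Gzmb* were *Hist1h4d* (0.59) and *Arsb* (0.58). For *Batf*, *4921524J17Rik* (0.76), *Fam107b* (0.70) and *Arl2bp* (0.68) fell to between 0.32 and 0.55 in the retained clusters.

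Among the partners and relatives of the 10 factors, 13 of 16 genes passed the filter. Of these 3 were called higher (*Runx2*, *Batf3*, *Junb*) and 1 lower (*Bcl6*) by age, and 5 were called higher by organ (*Tcf4*, *Runx2*, *Batf3*, *Irf4*, *Zfp683*). Over all genes, 5.28% were called higher and 3.85% lower by age, and 13.9% higher by organ. Of the genes for E proteins that Id2 and Id3 restrain, *Tcf3*, which encodes E2A, stood at 99.8, 84.9 and 89.4 CPM and was not called. *Tcf12*, which encodes HEB, stood at 33.3, 30.4 and 26.5 CPM and was not called either. *Tcf4*, which encodes E2-2 and is prominent in plasmacytoid dendritic cells and B cells, was 2.08-fold higher in kidney (1.69 to 2.57). *Zfp683*, which encodes the Blimp-1 relative Hobit of tissue-resident cells, rested on 15 UMIs in 28W spleen and 106 in kidney, a ratio of 7.56 (4.38 to 13.98).

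The factors of naive and memory cells were lower in kidney, where *Prdm1* and *Id2* were higher. Of 8 such genes, 7 were called lower in kidney and none higher, against the 4.7% of all genes called lower. *Tcf7* stood at 216, 207 and 76.9 CPM, *Lef1* at 357, 173 and 45.5 CPM, and *Bach2* at 36.6, 24.5 and 12.2 CPM. By age 3 of the 8 were called lower (*Lef1*, *Satb1*, *Myb*) and 1 higher (*Klf2*), against 3.85% and 5.28% of all genes. With *Tox* nearly level and *Tcf7* lower, the log2 ratio of *Tox* over *Tcf7* was -1.37 and -1.52 in 12W and 28W spleen, against -0.02 in the kidney. Within the retained kidney clusters this ratio ran from -1.57 in cluster 5 to 1.22 in cluster 1.

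Activation factors were mixed. Of 13 genes, 6 were called higher and 2 lower by age, and 5 higher and 2 lower by organ. The shares over all genes were 5.28% and 3.85% by age, and 13.9% and 4.7% by organ. *Bhlhe40*, a factor for cytokine production, stood at 5.07, 20.9 and 86.0 CPM and *Maf* at 3.68, 8.28 and 37.1 CPM, and both were called higher in both comparisons. *Nr4a1*, induced by T cell receptor signals, was lower by age at 67.4 and 24.6 CPM and higher in kidney at 89.3 CPM, while *Egr2* was called lower in both. *Nr4a1* was also among the leading genes of kidney cluster 8, which had raised B cell markers. The part of that cluster in the kidney level of *Nr4a1* was not tested.

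Effector genes, many of them known targets of T-bet and Runx3, were mostly higher in both comparisons. Of 12 effector genes, 9 were called higher by age and 10 by organ, with none lower. For this and the next lists, the shares over all genes were 5.28% higher and 3.85% lower by age. By organ they were 13.9% higher and 4.7% lower. *Ifng* was 6.33-fold higher by age (5.64 to 7.11) and 1.34-fold by organ (1.26 to 1.42), the latter under the threshold, and *Tbx21* had a ratio of 1.96 in both comparisons. *Klrg1*, a marker of terminal effector cells, was 2.27-fold higher by age (1.48 to 3.55) and 4.91-fold higher by organ (3.78 to 6.47). Of 7 inhibitory receptor genes that passed the filter, 4 were called higher and 1 lower by age, and 4 higher and 2 lower by organ. *Lag3* and *Ctla4* were called higher by age and lower in kidney, whereas *Pdcd1* and *Havcr2* were called higher in kidney only. All 6 proliferation markers were called higher in kidney and none by age, and each call by organ of the 10 factors was kept without the clusters set apart for proliferation. That step removed kidney cluster 11 only, while cluster 6 of 28W spleen, with 3084 CPM of proliferation markers, stayed in. With the retained clusters alone and without that cluster as well, 5 factors were again called higher and 1 lower in kidney.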

How the data were processed

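For each group the authors deposited 1 expression table with a mean count per cluster and a table of cell barcodes with their cluster number. Per the submitters' processing notes, Cell Ranger 2.1.1 and R 3.6.1 were used with GRCm38; cell filters, doublet treatment and annotation release are not given in the sources used here. The mean counts deposited by the authors, scaled to a median cell, were whole UMI counts of a cluster divided by a constant for that cluster, so UMIs were recovered by division; 100% of values came out whole within 0.001. The authors' log2 fold changes and adjusted p-values of each cluster against the rest were not used. No column of another sample was present.

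UMIs were summed over clusters to 1 library per group, since the barcodes do not separate the 4 samples; nothing states how many mice were used. Genes absent from a table were set to 0. Levels are CPM with exact Poisson intervals, and ratios have exact conditional intervals at 95%. Ratios on log2(CPM + 1) were called at 1.5-fold among 11298 genes with a mean of at least 1 CPM. A cluster was set apart where the summed markers of another cell type, or the proliferation markers, were at least 10 times the median cluster of the same library and at least 100 CPM, or where its UMIs per cell were under the library's divided by 3. The 3 genes most alike to each factor were ranked by Pearson correlation of log2(CPM + 10) centred by library, without T cell receptor and immunoglobulin segments. Named genes were the 10 factors, the genes of the lists given, and these most alike genes. The result of 1 further list is not reported here. Members and lists were chosen with earlier results of these data known. GENCODE M21 held 18960 of the 18992 gene identifiers; no coordinate enters a value. Scripts ran in Python 3.11.15 with numpy 2.4.6, pandas 2.3.3 and scipy 1.17.1, and the interval and ratio code was tested on simulated data. Alternatives covered the pseudocount, the threshold, the scaling, the weighting of clusters and the leaving out of clusters.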

Additional observations from a re-analysis of the deposited data

How the results depend on the processing

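No paired analysis was possible because each deposited table covers a whole group and its columns carry no replicate number. For the same reason no replicate could be left out, and single clusters were left out instead. Main counts were 3 factors higher and 1 lower by age, and 5 higher and 1 lower by organ. With a pseudocount of 10 CPM 1 was higher by age and 3 by organ, and with a threshold of 2-fold the counts were 1 and 0 by age and 3 and 1 by organ, where *Id3* lost its call by age. Leaving out 1 cluster at a time gave 2 to 4 higher by age, 1 lower by age, 5 higher by organ and 1 lower by organ. *Batf* passed 1.5-fold by age with 5 changes of scaling or clusters and with cluster 4 or 10 of 12W spleen or cluster 1 of 28W spleen left out, and *Prdm1* did with clusters weighted equally (log2 0.90) or without cluster 2 of 12W spleen (0.86). With the pseudocount of 10 CPM *Tox2* and *Zeb2* lost their calls in both comparisons, and *Prdm1* by organ fell from 2.17 to 0.91 (1.47 with clusters weighted equally). *Tox2* by age ranged from 0.30 to 2.41 between pseudocounts of 10 and 0.1 CPM. No called factor changed direction under any alternative; uncalled *Eomes*, *Tox*, *Prdm1* and *Id2* by age and *Tox* and *Batf* by organ changed sign at least once. Scaling by the median gene ratio subtracts log2 shifts of -0.09 by age and 0.09 by organ. These shifts differ slightly from the median log2 ratios of all genes given above, -0.08 and 0.08. Counting error is small for all but *Tox2*, *Zeb2* and *Prdm1*; variation between mice is unknown. The settings that kept only the 22 retained clusters, with or without cluster 6 of 28W spleen, were chosen after seeing the data.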
